A study of Rattus norvegicus with 20 samples.

Results

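The 9 genes described here encode the receptors and enzymes through which catecholamines, acetylcholine and adenosine set the level of cyclic AMP in heart cells, together with the α1-adrenergic receptors that act through another second messenger. They are Adrb1, Adra1a, Adra1b, Chrm2, Adora1, Adcy5, Adcy6, Pde3a and Pde3b, named as a set and looked up in the deposited expression table by the gene or protein name given there. All 9 were found among the 15503 genes of the table, and all 9 passed the filter on low counts. RNA sequencing was carried out on cultures labelled as neonatal rat cardiomyocytes, primary heart muscle cells prepared from newborn rats. The cultures were kept for 72 h with histidine at 100 nM together with doxorubicin at 1 µM (called both), with doxorubicin at 1 µM alone, with histidine at 100 nM alone, or with phosphate-buffered saline (PBS), with 5 libraries in each of the 4 groups. Doxorubicin is an anthracycline used against cancers and known for damage to the heart, and histidine is an amino acid. The questions addressed were what each compound did to the transcript levels, and whether the effect of one differed in the presence of the other.

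In heart muscle the β1-adrenergic receptor, encoded by Adrb1, binds noradrenaline and adrenaline and activates adenylyl cyclase through the stimulatory G protein. The cyclases encoded by Adcy5 and Adcy6 are the main forms of the adult heart muscle cell and make cyclic AMP, which activates protein kinase A (PKA) and so raises the force and rate of beating. The muscarinic M2 receptor (Chrm2) and the adenosine A1 receptor (Adora1) couple to inhibitory G proteins and hold the cyclases back. The phosphodiesterases encoded by Pde3a and Pde3b break cyclic AMP down and are themselves inhibited by cyclic GMP. The α1A- and α1B-adrenergic receptors (Adra1a, Adra1b) bind the same catecholamines but couple to phospholipase C.

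All 9 genes are annotated as protein-coding. On mRatBN7.2, the build of the table, Adrb1 spans chr1:255771597-255807259 (plus strand), Adra1a chr15:40832534-40927500 (plus), Adra1b chr10:28255025-28312919 (minus), Chrm2 chr4:65014144-65149103 (plus) and Adora1 chr13:45658872-45695801 (minus). Among the enzymes, Adcy5 spans chr11:65471612-65618974 (minus), Adcy6 chr7:129742838-129763754 (minus), Pde3a chr4:174172868-174438274 (plus) and Pde3b chr1:168607022-168769334 (plus). Read counts cover whole genes, and isoforms were not separated.

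The promoter windows of 4 of the receptor genes are shown, of which Adrb1 and Adora1 fell and Adra1b and Chrm2 rose with doxorubicin. Adra1a also fell, but no window was matched for it. Each window runs from 250 bases before to 50 bases after the annotated start, 5′ to 3′ on the gene's strand, from RefSeq's rat assembly GRCr8. Capitals mark the 5-letter core of the cyclic AMP response element (TGACG, or CGTCA on the other strand) and the GC box (GGGCGG, or CCGCCC on the other strand). Adrb1 lies at chr1:265776853-265777152 on the plus strand, Adora1 at chr13:48246782-48247081 on the minus strand, Adra1b at chr10:28814298-28814597 on the minus strand, and Chrm2 at chr4:65982200-65982499 on the plus strand.
Adrb1: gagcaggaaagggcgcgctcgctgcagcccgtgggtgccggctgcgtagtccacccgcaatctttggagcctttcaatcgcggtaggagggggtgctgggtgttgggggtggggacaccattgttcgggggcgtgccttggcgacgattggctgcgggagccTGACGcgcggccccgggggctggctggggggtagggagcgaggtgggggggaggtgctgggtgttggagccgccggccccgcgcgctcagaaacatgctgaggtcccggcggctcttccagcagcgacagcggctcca
Adora1: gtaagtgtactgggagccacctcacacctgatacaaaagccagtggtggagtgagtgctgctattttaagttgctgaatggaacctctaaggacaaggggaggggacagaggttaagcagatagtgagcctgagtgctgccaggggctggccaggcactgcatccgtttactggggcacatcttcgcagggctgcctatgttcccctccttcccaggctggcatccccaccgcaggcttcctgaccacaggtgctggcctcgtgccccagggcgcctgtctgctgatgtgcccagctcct
Adra1b: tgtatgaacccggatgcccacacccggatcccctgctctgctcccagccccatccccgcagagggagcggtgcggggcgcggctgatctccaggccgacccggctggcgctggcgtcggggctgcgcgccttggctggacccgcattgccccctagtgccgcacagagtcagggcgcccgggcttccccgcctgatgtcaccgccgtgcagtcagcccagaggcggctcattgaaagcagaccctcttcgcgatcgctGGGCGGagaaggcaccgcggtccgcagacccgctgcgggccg
Chrm2: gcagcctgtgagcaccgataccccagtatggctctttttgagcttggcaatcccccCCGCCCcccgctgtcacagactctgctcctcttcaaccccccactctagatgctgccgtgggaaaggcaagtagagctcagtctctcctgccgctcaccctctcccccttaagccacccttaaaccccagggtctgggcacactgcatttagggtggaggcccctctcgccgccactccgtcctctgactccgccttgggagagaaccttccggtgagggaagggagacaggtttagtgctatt

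Among these windows the Adrb1 promoter held 1 match to TGACG, at −88 from the start, and no GC box. The Adora1 window held neither motif. Adra1b and Chrm2 each held 1 GC box, at 9 from the start in Adra1b and at −194 in Chrm2. Over all 33469 windows of 300 bases, searched on both strands in the same way, 21.2% held TGACG and 33.1% held the GC box. The GC content was 70.7% for Adrb1, 59% for Adora1, 72% for Adra1b and 60.3% for Chrm2, against a median of 51.7% over all windows. Windows were also found for Adcy5, with 70.7% GC and 4 GC boxes, and Pde3a, with 58.7% GC and 1 GC box. A match is a description of the letters and not a site, and no match says only that these letters are not in this window.

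The libraries held 53246205 to 83624651 reads counted on genes. In a principal component analysis of all genes tested, the first component (62.6% of the variance) separated the 10 libraries with doxorubicin from the 10 without it. The second (7.43%) set doxorubicin replicate 4 apart, at 107.9 against −18.9 to 9.0 in the other 19 libraries, and the FPKM values of that library summed to 517265, against 373417 to 398545 elsewhere. FPKM are reads scaled to gene length and library size, and CPM are read counts scaled to the library total, adjusted by TMM normalisation, with no length. The labels do not say whether the 5 libraries of a group came from separate cultures, so the p-values measure the spread between libraries, which may be technical.

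The labelled cell type was checked against marker genes in the same libraries. Of 18 cardiomyocyte markers, 17 were measured and none was at 0 throughout, but per length they were low beside fibroblast genes. Tnnt2 (cardiac troponin T) averaged 36.5 ± 1.83 FPKM in doxorubicin libraries and 109.7 ± 8.16 FPKM in PBS libraries (SD, n = 5 each), while Col1a1 (collagen I) averaged 4012 ± 1046 FPKM with doxorubicin and 6671 ± 200.3 FPKM with PBS. Summed per length, the cardiomyocyte list stood at 637 ± 40.6 FPKM in PBS libraries and the fibroblast list at 17066 ± 393 FPKM. Doxorubicin moved these lists too. Against PBS, 43.2% of all genes tested passed an adjusted p under 0.05 in edgeR, 21.7% higher and 21.5% lower. The cardiomyocyte markers summed to 210.3 to 346 CPM with doxorubicin and 1155 to 1311 CPM with PBS, and 15 of 17 fell. The 9 measured macrophage markers, all lower, summed to 21.2 to 49.3 CPM with doxorubicin and 1767 to 1811 CPM with PBS. Fibroblast markers summed to 65229 to 98217 CPM against 102736 to 107946 CPM, with 3 of 10 higher and 3 lower, and smooth muscle and pericyte markers to 2746 to 5908 CPM against 7489 to 8609.8 CPM, with 1 of 10 higher and 7 lower. Of the other lists, 3 of 9 endothelial markers rose and 5 fell, 3 of 7 mesothelial and epicardial markers rose and 1 fell, 2 of 3 Schwann cell and neuronal markers rose, and 1 adipocyte marker was measured, at under 2 CPM in every library. With histidine present, cardiomyocyte markers summed to 233 ± 13.2 CPM in both libraries and 1136 ± 74.0 CPM in histidine libraries, and macrophage markers to 25.3 to 40.2 CPM in both libraries and 1715 to 2172 CPM in histidine libraries. In whole cultures, fewer cells of a type and less RNA per cell cannot be told apart, and the part of these cell types in the changes below was not tested.

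Per length, Adcy6 was the most abundant of the 9 genes in every group. It averaged 33.4 ± 3.05 FPKM in both libraries, 30.5 ± 6.09 FPKM with doxorubicin, 21.5 ± 1.14 FPKM with histidine and 22.0 ± 0.817 FPKM with PBS. No other gene of the set reached the lowest of these libraries. Pde3a and Pde3b came next and overlapped each other in every group, at 4.07 ± 0.953 and 4.25 ± 0.362 FPKM with doxorubicin against 7.39 ± 0.666 and 6.34 ± 0.423 FPKM with PBS. Adcy5 followed, at 2.62 ± 0.449 FPKM with doxorubicin and 3.08 ± 0.0769 FPKM with PBS, and Adra1b came after Adcy5 in all 4 groups. The other 4 receptors were the least abundant. With PBS they lay between 0.43 FPKM (Adora1) and 0.553 FPKM (Adra1a) on average, and neighbours in that order overlapped. In both libraries and in doxorubicin libraries Chrm2 stood above them, at 0.984 ± 0.0572 and 0.916 ± 0.268 FPKM, and Adrb1, Adora1 and Adra1a were at or under 0.149 FPKM on average and overlapped.

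**Figure D1:**
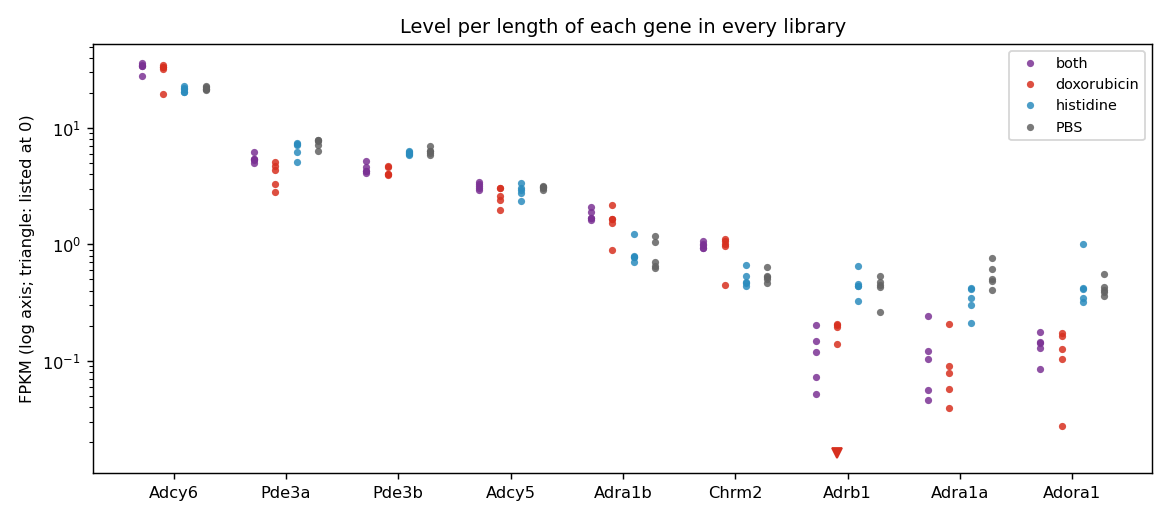
FPKM (log axis) of the 9 genes in each of the 20 libraries, with the groups both, doxorubicin, histidine and PBS from left to right within each gene; the triangle marks Adrb1 listed at 0 in 1 doxorubicin library. Adcy6 is highest in every library, and Adrb1, Adra1a and Adora1 are lower on average in the groups with doxorubicin.

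Doxorubicin changed the transcripts of receptors, cyclases and phosphodiesterases in both directions. Against PBS, Adra1b, Chrm2 and Adcy6 rose, and Adrb1, Adra1a, Adora1, Adcy5, Pde3a and Pde3b fell, so that 9 of 9 passed the threshold of an adjusted p under 0.05 in edgeR's quasi-likelihood test, where 43.2% of the 15449 genes tested did (21.7% higher and 21.5% lower). The median log2 fold change was −0.62 over the 9 genes and 0.05 over all genes tested. In 6 of the 9 the libraries of the groups did not overlap in CPM, as in 31.1% of all genes tested. Since the 9 genes were chosen with earlier results of these data known, these shares are a description and not a test.

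Among the receptors that fell, Adra1a, the α1A-adrenergic receptor, had 0.282, 0.233, 0.588, 0.199 and 0.115 CPM in doxorubicin libraries, against 1.23, 1.55, 1.88, 2.37 and 1.48 CPM in PBS libraries. Every doxorubicin library was below every PBS library. The log2 fold change was −2.58 ± 0.43 (SE), a 5.97-fold lower level (edgeR adjusted p = 7.11e-05). The values rest on 95 reads over the 5 doxorubicin libraries and 594 reads over the 5 PBS libraries.

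Adora1, the adenosine A1 receptor, had 0.531, 0.644, 0.868, 0.172 and 0.836 CPM in doxorubicin libraries, against 1.93, 2.12, 3.01, 2.34 and 2.19 CPM in PBS libraries. The groups were again apart, with doxorubicin replicate 4 the lowest. Adora1 was 3.8-fold lower, a log2 fold change of −1.93 ± 0.36 (edgeR adjusted p = 0.000231). Adrb1, the β1-adrenergic receptor, had 0.631, 0.93, 0, 1.03 and 0.793 CPM in doxorubicin libraries, against 1.25, 1.89, 2.27, 1.83 and 2.53 CPM in PBS libraries. The groups did not overlap, and doxorubicin replicate 3 had 0 reads, which allows up to 0.042 CPM (3 reads, counting error only). The other doxorubicin libraries had 38, 52, 78 and 55 reads, so this library lay far below them, and the reason was not tested. On the log2 scale the change was −1.53 ± 0.55 (edgeR adjusted p = 0.0298). This call ended without PBS replicate 3 (adjusted p = 0.0548), without PBS replicate 5 (0.0635), without doxorubicin replicate 1 (0.0515) and in an edgeR fit of these groups alone (0.0981), with log2 fold changes of −1.42 to −1.53. Over the 10 fits that left out 1 of these libraries, the log2 fold change ran from −1.74 to −1.20.

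The receptors that rose were Adra1b and Chrm2. Adra1b, the α1B-adrenergic receptor, had 2.36, 5.55, 4.17, 4.88 and 3.98 CPM in doxorubicin libraries, against 1.71, 3.24, 1.78, 2.9 and 1.94 CPM in PBS libraries. Doxorubicin replicate 1 lay within the PBS range and the other 4 above it. The log2 fold change was 0.85 ± 0.22 (edgeR adjusted p = 0.00429), a 1.81-fold higher level. Chrm2, the muscarinic M2 receptor, had 6.81, 7.44, 6.57, 3.55 and 7.15 CPM in doxorubicin libraries, against 4.7, 3.98, 3.85, 3.43 and 3.72 CPM in PBS libraries. Doxorubicin replicate 4 lay within the PBS range, and the other 4 libraries were at or above 6.57 CPM. Chrm2 was 1.6-fold higher, a log2 fold change of 0.68 ± 0.16 (edgeR adjusted p = 0.00209).

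**Figure D2:**
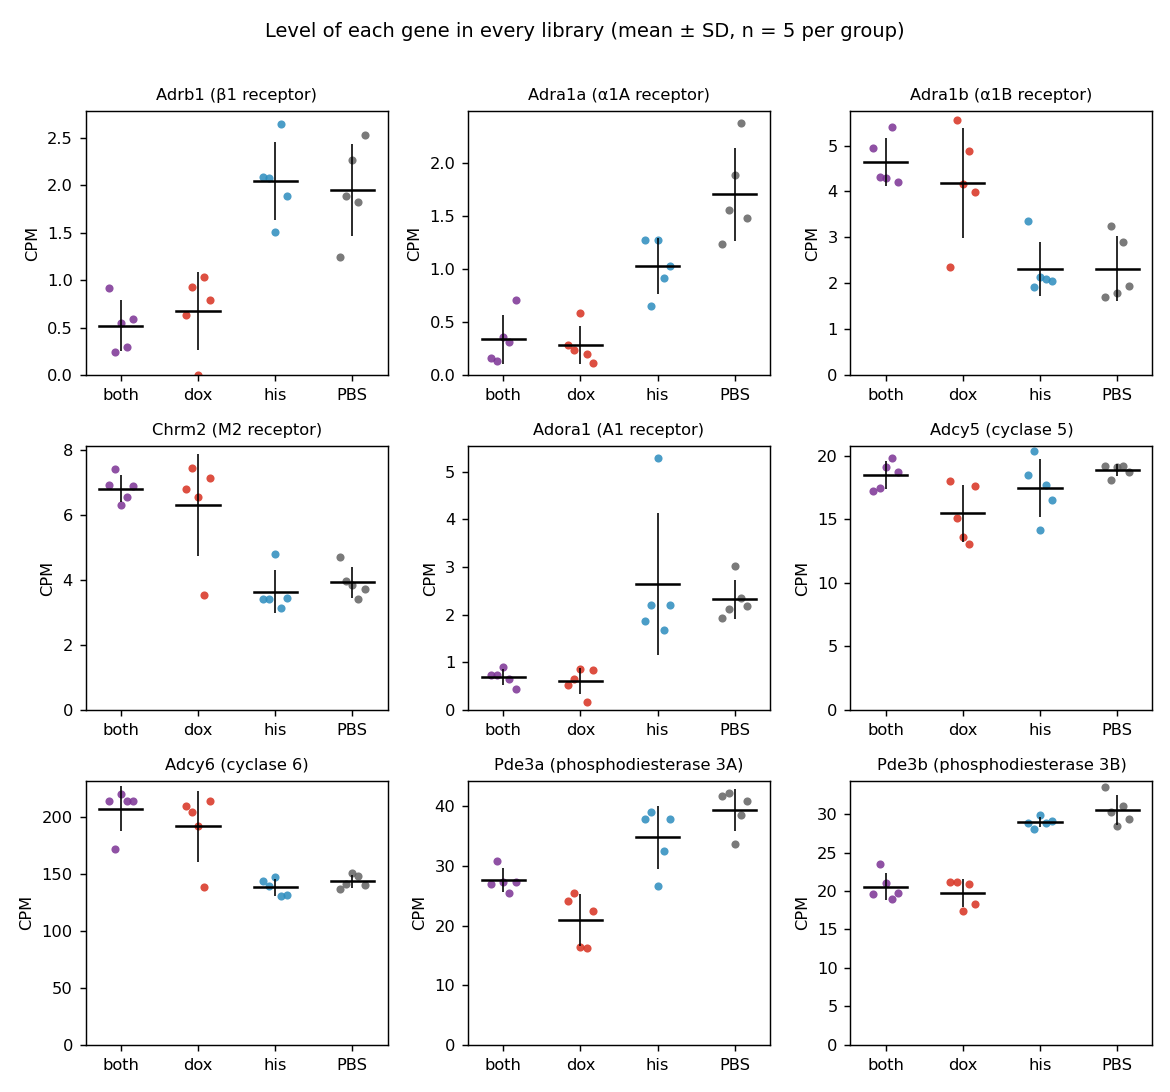
CPM of each of the 9 genes in every library of the groups both, doxorubicin (dox), histidine (his) and PBS; points are libraries, the horizontal line is the mean and the vertical line ± SD (n = 5). Adra1a lies at 0.115 to 0.71 CPM in the 10 libraries with doxorubicin, and Chrm2 is above 6 CPM in all of them but doxorubicin replicate 4 (3.55 CPM).

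The cyclases moved apart. Adcy6 had 209, 204, 192, 138 and 214 CPM in doxorubicin libraries, against 137, 141, 151, 148 and 140.2 CPM in PBS libraries. Without doxorubicin replicate 4, which was near the lowest PBS library, every doxorubicin library was above every PBS library. On the log2 scale the change was 0.41 ± 0.10 (edgeR adjusted p = 0.0015). Adcy5 had 18.0, 15.1, 13.6, 13.1 and 17.6 CPM in doxorubicin libraries, against 19.2, 18.1, 19.1, 19.2 and 18.7 CPM in PBS libraries. The groups did not overlap, but the gap between 18.0 and 18.1 CPM was small beside the spread of the doxorubicin libraries. The log2 fold change was −0.29 ± 0.10 (edgeR adjusted p = 0.0238). The Adcy5 call ended without doxorubicin replicate 3 (adjusted p = 0.0638), without doxorubicin replicate 4 (0.0519) and without doxorubicin replicates 3 and 4 together (log2 fold change −0.16, adjusted p = 0.192). It also ended when libraries were scaled by their totals only (0.0803), in limma on log2(FPKM + 0.1) (0.0798), in limma on log2(FPKM + 1) (0.0772) and in an edgeR fit of these groups alone (0.0531).

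Both phosphodiesterases of the PDE3 family fell. Pde3a had 24.2, 25.5, 16.4, 16.2 and 22.4 CPM in doxorubicin libraries, against 41.7, 42.3, 33.7, 38.5 and 40.9 CPM in PBS libraries. Pde3b had 21.2, 21.2, 17.4, 20.9 and 18.3 CPM in doxorubicin libraries, against 33.5, 30.3, 28.4, 31.0 and 29.3 CPM in PBS libraries. For each gene the groups were well apart, and doxorubicin replicates 3 and 4 were the lowest for Pde3a but not together the lowest for Pde3b. Pde3a was 1.88-fold lower, a log2 fold change of −0.91 ± 0.13 (edgeR adjusted p = 7.49e-06), and Pde3b was 1.54-fold lower, a log2 fold change of −0.62 ± 0.07 (edgeR adjusted p = 7.52e-07). Pde3b overlaps Cyp2r1, which lies on the other strand. Reads of overlapping genes on opposite strands cannot be told apart in this library type, and the other 8 genes overlapped no gene of the table.

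Doxorubicin was compared a second time in cultures that also received histidine, both against histidine, with no library in common with the comparison above. Here 8 of the 9 genes passed, 3 higher and 5 lower, each in the direction it had against PBS, where 40.2% of all genes tested passed (19.9% higher and 20.3% lower). The groups were apart in 6 of the 9, and in 35.2% of all genes. Adrb1 had 0.923, 0.248, 0.546, 0.3 and 0.587 CPM in both libraries, against 2.09, 2.08, 1.51, 2.65 and 1.89 CPM in histidine libraries, with no overlap. Its log2 fold change was −1.96 ± 0.56 (edgeR adjusted p = 0.00785), and the call held without each of these libraries in turn.

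Adora1 had 0.733, 0.728, 0.904, 0.658 and 0.448 CPM in both libraries, against 1.86, 2.2, 5.28, 1.68 and 2.21 CPM in histidine libraries. The groups were apart, and histidine replicate 3 stood alone at the top. On the log2 scale the change was −1.93 ± 0.36 (edgeR adjusted p = 0.000234). Adra1a had 0.163, 0.132, 0.359, 0.315 and 0.71 CPM in both libraries, against 1.27, 0.65, 1.27, 0.914 and 1.03 CPM in histidine libraries. Only the ends of the groups overlapped, both replicate 5 with histidine replicate 2. The log2 fold change was −1.61 ± 0.43 (edgeR adjusted p = 0.00472).

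Adra1b had 4.95, 4.32, 4.3, 5.41 and 4.2 CPM in both libraries, against 3.35, 1.91, 2.13, 2.09 and 2.06 CPM in histidine libraries. Chrm2 had 6.91, 7.41, 6.3, 6.55 and 6.9 CPM in both libraries, against 3.41, 3.42, 4.79, 3.15 and 3.45 CPM in histidine libraries. Neither receptor overlapped between the groups. The log2 fold changes were 1.00 ± 0.22 for Adra1b (edgeR adjusted p = 0.00123) and 0.90 ± 0.16 for Chrm2 (edgeR adjusted p = 0.000163). Among the enzymes, Adcy6 rose to 172 to 220.1 CPM in both libraries, against 130.2 to 147 CPM in histidine libraries, a log2 fold change of 0.58 ± 0.10 (edgeR adjusted p = 5.84e-05). Pde3b fell to 19.0 to 23.5 CPM in both libraries, against 28.1 to 29.9 CPM in histidine libraries, a log2 fold change of −0.49 ± 0.07 (edgeR adjusted p = 1.6e-05).

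Adcy5 and Pde3a were the less settled members of this comparison. Adcy5 had 17.2, 17.5, 19.1, 19.8 and 18.7 CPM in both libraries, against 18.5, 20.4, 14.2, 17.7 and 16.5 CPM in histidine libraries, which overlapped widely (log2 fold change 0.08 ± 0.10, edgeR adjusted p = 0.551). Pde3a had 27.0, 30.9, 27.3, 25.5 and 27.4 CPM in both libraries, against 37.9, 39.1, 26.6, 32.6 and 37.9 CPM in histidine libraries. Histidine replicate 3 lay among the both libraries and the other 4 above them. On the log2 scale the change was −0.33 ± 0.13 (edgeR adjusted p = 0.0417). That call ended in 7 of the 10 fits that left out 1 of these libraries, with adjusted p up to 0.104 (histidine replicates 1, 2 and 5, and both replicates 1, 3, 4 and 5), with library totals only (0.113), with a filter of at least 1 CPM on average (0.0541), and in limma on log2(FPKM + 0.1) (0.133) and log2(FPKM + 1) (0.118).

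**Figure D3:**
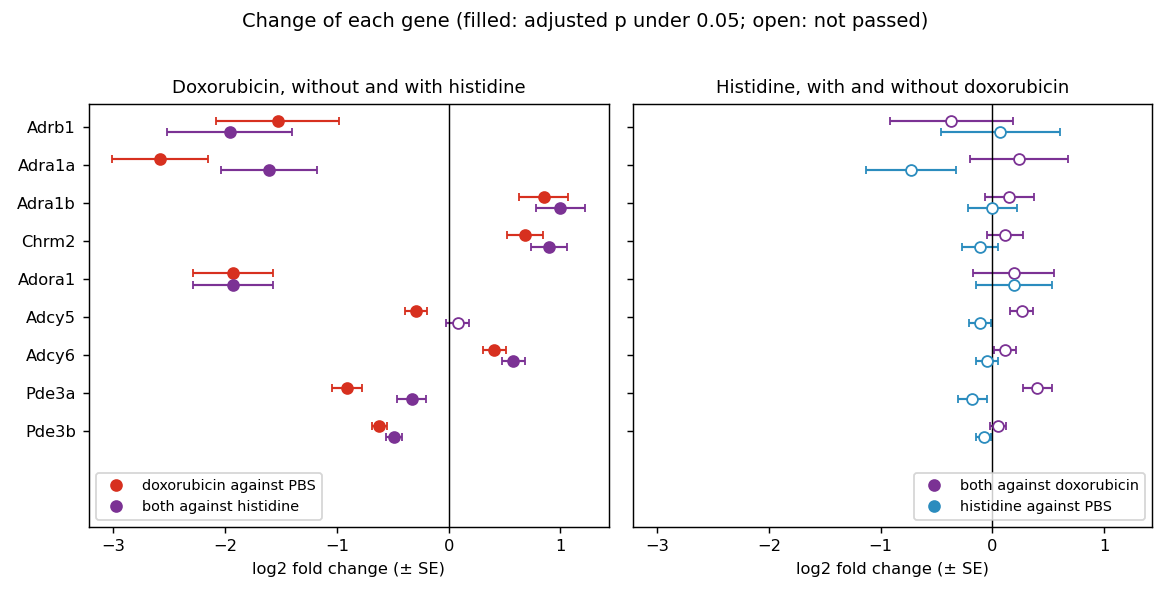
log2 fold change (± SE) of the 9 genes with doxorubicin (left; doxorubicin against PBS in red, both against histidine in purple) and with histidine (right; both against doxorubicin in purple, histidine against PBS in blue). Filled points passed an adjusted p under 0.05; on the left these are 9 of 9 and 8 of 9 genes, and on the right none.

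The groups that shared neither treatment, both against PBS, use libraries of the comparisons above, and the values stand beside them. There, 8 of 9 genes passed, 3 higher and 5 lower, where 39.9% of all genes tested passed (19.2% higher and 20.7% lower), and 8 of 9 were apart where 38% of all genes were. Adra1a fell by 2.34 on the log2 scale, Adrb1 by 1.90 and Adora1 by 1.74. Adra1b rose by 1.00, Chrm2 by 0.79 and Adcy6 by 0.53. Adcy5 was at 18.5 ± 1.1 CPM in both libraries and 18.9 ± 0.455 CPM in PBS libraries (edgeR adjusted p = 0.845).

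Histidine alone moved none of the 9 genes past the threshold, and 0% of all genes tested passed. At an unadjusted p under 0.05 there were 0 of the 9 genes and 312 of 15449 genes (2.02%) in edgeR, and DESeq2 called 5 genes after adjustment, none of them among the 9. The groups overlapped in all 9 genes, and did not overlap in 0.841% of all genes. Pde3b had 28.8, 28.1, 29.9, 28.8 and 29.1 CPM in histidine libraries, against 33.5, 30.3, 28.4, 31.0 and 29.3 CPM in PBS libraries, a log2 fold change of −0.08 ± 0.07. Chrm2 differed by −0.11 ± 0.16, Adcy6 by −0.05 ± 0.10 and Adra1b by −0.00 ± 0.22 on the same scale. The largest difference was that of Adra1a, at 1.03 ± 0.262 CPM in histidine libraries and 1.7 ± 0.441 CPM in PBS libraries. The highest histidine libraries, at 1.27 CPM, reached into the PBS range of 1.23 to 2.37 CPM. On the log2 scale the difference was −0.73 ± 0.40 (edgeR adjusted p = 1).

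Adding histidine to doxorubicin likewise moved none of the 9 genes past the threshold, with 0% of all genes tested passing. Unadjusted, edgeR gave a p under 0.05 for 2 of the 9 genes and for 12.6% of all genes, and DESeq2 called 20 genes, none of them among the 9. Those 2 were Pde3a and Adcy5. Pde3a had the values 27.0, 30.9, 27.3, 25.5 and 27.4 CPM in both libraries, against 24.2, 25.5, 16.4, 16.2 and 22.4 CPM in doxorubicin libraries. No libraries overlapped, though the nearest library of each group rounded to 25.5 CPM, and 1.06% of all genes were likewise apart. Its log2 fold change was 0.40 ± 0.13 (edgeR adjusted p = 0.393). Adcy5 had 17.2 to 19.8 CPM in both libraries, against 13.1 to 18.0 CPM in doxorubicin libraries, a log2 fold change of 0.26 ± 0.10 (edgeR adjusted p = 0.393). Without doxorubicin replicates 3 and 4 the log2 fold changes were 0.20 for Pde3a and 0.13 for Adcy5. The 5 receptors differed by −0.37 (Adrb1) to 0.24 (Adra1a) on the log2 scale and overlapped.

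The interaction asked whether the difference made by histidine was the same with and without doxorubicin. None of the 9 genes passed, and 0% of all genes tested did. At an unadjusted p under 0.05, edgeR gave 2 of the 9 genes against 6.86% of all genes, and DESeq2 called 15 genes after adjustment, none among the 9. The interaction of Pde3a was 0.58 ± 0.18 on the log2 scale (edgeR adjusted p = 0.631), and that of Adcy5 was 0.37 ± 0.14 (edgeR adjusted p = 0.631). Without doxorubicin replicates 3 and 4 these were 0.38 and 0.24. For Adra1a the interaction was 0.96 ± 0.59, with an unadjusted p above 0.05. The different outcomes for Adcy5 in the comparisons with doxorubicin are thus not shown to be a difference between them.

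The balance between related genes was compared within each library as a log2 ratio of FPKM, with 0.01 added to each value and an exact two-sided permutation test over libraries. For 3 pairs and 4 comparisons, 12 tests are given, of which 7 passed, with p adjusted by the Benjamini-Hochberg method over the 16 ratio tests made. The smallest p that 5 against 5 libraries allow is 0.00794. The adjustment pooled comparisons of histidine with those of doxorubicin, so the adjusted p of a histidine comparison also depends on the doxorubicin comparisons. The histidine comparisons were not adjusted by themselves. The ratio of the α1 receptors, Adra1a to Adra1b, was −3.17, −4.61, −2.94, −4.64 and −4.95 in doxorubicin libraries, against −0.63, −1.23, −0.08, −0.46 and −0.56 in PBS libraries. All doxorubicin libraries were below all PBS libraries, and the difference was −3.47 ± 0.46 (SE; exact permutation p = 0.00794, adjusted p = 0.0212). Adra1b was thus 16.7 times Adra1a per length with doxorubicin and 1.51 times with PBS. The size depends on the pseudocount, since Adra1a is low: with 0.1 in place of 0.01 the difference was −2.60, at the same adjusted p (exact permutation). With histidine present, the same ratio was −4.07 ± 0.93 (SD) in both libraries and −1.33 ± 0.32 in histidine libraries, again apart, a difference of −2.74, or −2.08 with the pseudocount of 0.1 (exact permutation, adjusted p = 0.0212 for each). Histidine against PBS gave a difference of −0.73 ± 0.23 in this ratio with overlap (exact permutation p = 0.0238, adjusted p = 0.0423). That call ended in 8 of the 10 comparisons that left out 1 library, with adjusted p up to 0.0847 and differences of −0.89 to −0.61.

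Adcy5 to Adcy6 was −3.44, −3.66, −3.72, −3.30 and −3.50 in doxorubicin libraries, against −2.74, −2.86, −2.88, −2.85 and −2.81 in PBS libraries. The groups did not overlap, a difference of −0.70 ± 0.08 (exact permutation, adjusted p = 0.0212). Doxorubicin replicate 4, which had low CPM of Adcy5 and of Adcy6, was at −3.30 and outside the PBS range. Both against histidine gave −0.49 ± 0.12 (exact permutation, adjusted p = 0.0363), with overlap.

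Of the 3 ratios, Pde3a to Pde3b was the one that passed for histidine in the presence of doxorubicin. It was 0.31, 0.24, 0.23, 0.28 and 0.32 in both libraries, against 0.04, 0.11, −0.24, −0.52 and 0.14 in doxorubicin libraries. The groups were apart, with a narrow spread in both libraries and a wide one with doxorubicin alone. The difference was 0.37 ± 0.13 (exact permutation p = 0.00794, adjusted p = 0.0212). That p is the smallest possible, and its adjusted value rests on the pooling with the doxorubicin comparisons. Without each library in turn the difference kept an adjusted p of at most 0.0423, pooled in the same way, and a size of 0.26 to 0.43. The lowest doxorubicin libraries were replicates 3 and 4 (−0.24 and −0.52), and the ratio was not tested without them together. Leaving them out took the log2 fold change of Pde3a itself from 0.40 to 0.20. For the ratio, doxorubicin against PBS gave −0.31 ± 0.13 (exact permutation, adjusted p = 0.0423), a call that ended in 6 of the 10 comparisons without 1 library, with adjusted p up to 0.155 and differences of −0.37 to −0.20. The other 5 of the 12 differences did not pass (exact permutation). For both against doxorubicin these were −0.00 ± 0.59 for Adra1a to Adra1b (adjusted p = 0.992, exact permutation) and 0.14 ± 0.09 for Adcy5 to Adcy6 (adjusted p = 0.292, exact permutation). For histidine against PBS they were −0.07 ± 0.11 for Adcy5 to Adcy6 (adjusted p = 0.84, exact permutation) and −0.11 ± 0.13 for Pde3a to Pde3b (adjusted p = 0.582, exact permutation). For both against histidine, Pde3a to Pde3b differed by 0.17 ± 0.12 (adjusted p = 0.3, exact permutation).

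**Figure D4:**
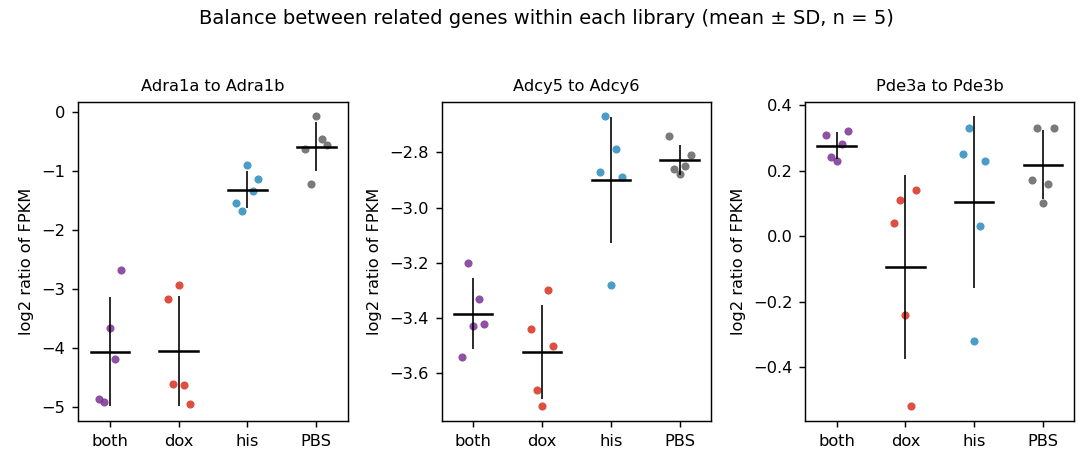
log2 ratio of FPKM of 3 gene pairs in every library of the groups both, doxorubicin (dox), histidine (his) and PBS; points are libraries, the horizontal line is the mean and the vertical line ± SD (n = 5). The Adra1a to Adra1b ratio averages −4.07 and −4.06 in the groups with doxorubicin, against −1.33 with histidine and −0.59 with PBS.

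Around these genes, 112 other genes of the pathway were listed by role, of which 94 were tested. With doxorubicin against PBS, 17 rose and 32 fell, 52.1% against 43.2% of all genes tested, and their median log2 fold change was −0.12 against 0.05. With both against histidine, 14 rose and 26 fell (42.6% against 40.2% of all genes). No listed gene passed for histidine against PBS, for both against doxorubicin or for the interaction. The gene with the lowest p was Nr4a1 for histidine against PBS, Akap5 for both against doxorubicin and Pde5a for the interaction (edgeR adjusted p = 1, 0.393 and 0.631). In these comparisons an unadjusted edgeR p under 0.05 was found for 3, 9 and 6 of the 94 genes. Over all genes tested, the shares were 2.02%, 12.6% and 6.86%.

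Of 6 other receptors tested with doxorubicin against PBS, 3 rose and 2 fell, where 43.2% of all genes tested passed. Chrm3, the muscarinic M3 receptor, had 48 to 74 reads in each doxorubicin library and 0 to 12 in each PBS library, or 324 against 28 reads over the groups (log2 fold change 3.57 ± 0.71, edgeR adjusted p = 0.00038). Adra2a, the α2A-adrenergic receptor, rose to 0.887 ± 0.478 CPM, against 0.23 ± 0.0894 CPM with PBS. Adora2b, the adenosine receptor of low affinity, rose to 10.9 ± 2.17 CPM, against 6.38 ± 1.28 CPM with PBS. Adra1d, the third α1 receptor, fell to 1.04 ± 0.375 CPM, against 1.88 ± 0.557 CPM with PBS. Its call ended without doxorubicin replicate 3 (edgeR adjusted p = 0.0519), without PBS replicate 1 (0.0564), without PBS replicate 3 (0.057), and without doxorubicin replicates 3 and 4 together (0.133).

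Of 11 G protein subunits, 2 rose and 9 did not pass, where 43.2% of all genes tested passed. Gnai1, an inhibitory α subunit, rose to 19.4 ± 2.35 CPM with doxorubicin, against 11.2 ± 3.72 CPM with PBS, and Gna11, of the Gq class, to 102 ± 9.02 CPM, against 86.5 ± 6.39 CPM. Gna11 no longer passed without PBS replicate 1 or without doxorubicin replicates 3 and 4 (edgeR adjusted p = 0.0582 in each). Gnas, the stimulatory α subunit that links Adrb1 to the cyclases, did not pass. Its 20 libraries fell into a range of 0.62 to 2.37 CPM and a range of 22.4 to 29.6 CPM with nothing between, and each of the 4 groups had libraries on either side. The low range held 2 both libraries, 1 doxorubicin library, 2 histidine libraries and 4 PBS libraries (doxorubicin against PBS, log2 fold change 1.69 ± 1.06, edgeR adjusted p = 0.21).

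The 8 other cyclases tested held 4 that rose, 1 that fell and 3 that did not pass. Over all genes tested, 21.7% rose and 21.5% fell. Adcy8 had 538 reads over the doxorubicin libraries and 36 over the PBS libraries, and Adcy1 had 179 against 33 reads. Adcy2 rose to 4.67 ± 0.812 CPM, against 2.11 ± 0.416 CPM with PBS (log2 fold change 1.15 ± 0.18, edgeR adjusted p = 2.67e-05). Adcy7 fell to 39.4 ± 5.41 CPM, against 80.1 ± 3.57 CPM (−1.02 ± 0.10, adjusted p = 5.47e-08). Adcy1 no longer passed in a fit of these groups alone (edgeR adjusted p = 0.0553) or in limma on log2(FPKM + 1) (0.105). The macrophage marker sum fell in the same libraries, and its part in the Adcy7 value was not tested.

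Of 13 other phosphodiesterases, 3 rose, 4 fell and 6 did not pass, where 43.2% of all genes tested passed. Pde7b, specific for cyclic AMP, rose to 7.07 ± 1.12 CPM with doxorubicin, against 2.82 ± 0.642 CPM with PBS. Pde2a, which cyclic GMP stimulates, fell to 9.01 ± 2.15 CPM, against 19.6 ± 3.28 CPM with PBS. Pde5a, specific for cyclic GMP, fell to 10.6 ± 1.4 CPM, against 17.1 ± 1.12 CPM, and Pde4a, a cyclic AMP-specific enzyme, to 12.0 ± 2.5 CPM, against 17.3 ± 0.565 CPM. The edgeR adjusted p of these 4 genes were 4.83e-06, 6.94e-06, 6.93e-06 and 0.00257.

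Downstream of cyclic AMP, 20 genes of PKA, of the exchange factors EPAC and of their anchors were tested. Of these 2 rose, 9 fell and 9 did not pass, where 21.7% of all genes tested rose and 21.5% fell. Prkar1a, a PKA regulatory subunit, rose to 444 ± 34 CPM with doxorubicin, against 353 ± 6.93 CPM with PBS. Prkar2a, another regulatory subunit, fell to 11.3 ± 1.37 CPM, against 17.3 ± 0.467 CPM with PBS. Rapgef3, which encodes EPAC1, fell to 10.4 ± 1.96 CPM, against 18.4 ± 2.06 CPM, and Akap6, an anchor of the nuclear envelope in muscle, to 3.48 ± 0.991 CPM, against 8.12 ± 1.91 CPM. Prkacb, a catalytic subunit, fell into separate ranges in the way of Gnas, at 13.7 to 17.1 CPM in 6 libraries and 81.9 to 122 CPM in 14, with every group on both sides.

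Of 11 genes of receptor desensitisation tested, 1 rose, 7 fell and 3 did not pass, with a median log2 fold change of −0.84. Over all genes tested, 21.7% rose and 21.5% fell, with a median of 0.05. Arrb2, which encodes β-arrestin 2, fell to 3.47 ± 0.686 CPM with doxorubicin, against 52.6 ± 4.35 CPM with PBS (log2 fold change −3.92 ± 0.12, edgeR adjusted p = 2.46e-15). Grk2, the receptor kinase that phosphorylates active β receptors, fell to 50 ± 4.44 CPM, against 89.6 ± 2.84 CPM (−0.84 ± 0.06, adjusted p = 8.54e-10). Grk3 had 8 reads over the 5 doxorubicin libraries, against 1817 over the 5 PBS libraries. Rgs4, a regulator that shortens G protein signals, fell to 12.4 ± 4.15 CPM, against 229 ± 42.8 CPM with PBS. Over the same libraries the macrophage markers summed to 32.7 ± 10.6 CPM with doxorubicin and 1786 ± 18.3 CPM with PBS, and their part in these values was not tested.

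Among targets, none of 10 PKA substrates tested rose and 6 fell, where 21.7% of all genes tested rose and 21.5% fell. Tnni3, cardiac troponin I, fell to 0.305 ± 0.177 CPM with doxorubicin, against 3.25 ± 0.512 CPM with PBS, Ryr2, the calcium release channel, to 2.6 ± 1.02 CPM, against 12.7 ± 2.48 CPM, and Mybpc3, a myosin-binding protein, to 4.56 ± 2.18 CPM, against 14.8 ± 0.932 CPM. These 3 also stand on the list of cardiomyocyte markers, of which 15 of 17 fell. Cacna1c, the pore of the L-type calcium channel, fell to 30.6 ± 7.99 CPM, against 48.1 ± 3.3 CPM with PBS. Of 9 genes of cyclic AMP-driven transcription, 1 passed: Per1, a clock gene, was at 21.6 ± 4.51 CPM, against 28.3 ± 1.68 CPM with PBS (edgeR adjusted p = 0.0167). That call ended without doxorubicin replicates 3 and 4 (adjusted p = 0.126) and with library totals only (0.055).

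Of 6 tested enzymes that make or remove transmitters and adenosine, 2 rose and 2 fell, where 43.2% of all genes tested passed. The monoamine oxidases rose, Maoa to 258 ± 21.9 CPM with doxorubicin, against 156 ± 14 CPM with PBS, and Maob to 6.52 ± 1.06 CPM, against 2.01 ± 0.719 CPM. Adk, which removes adenosine, fell to 9.03 ± 1.13 CPM, against 15.3 ± 0.62 CPM. Th and Chat, which encode enzymes of noradrenaline and acetylcholine synthesis, were not analysed here.

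**Figure D5:**
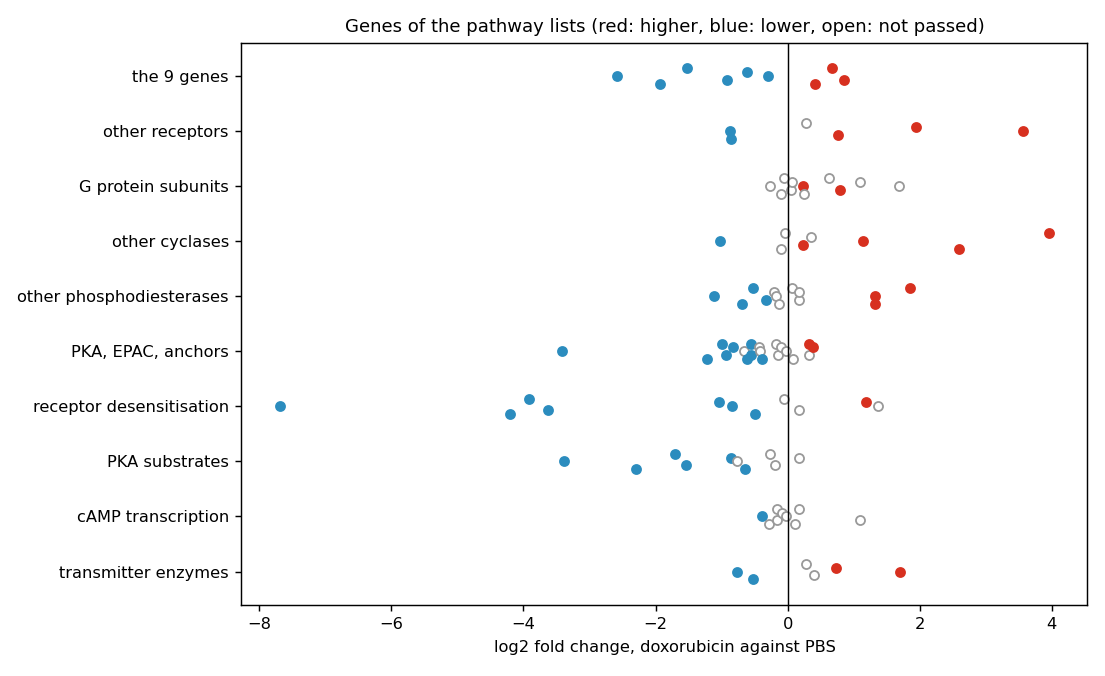
log2 fold change with doxorubicin against PBS of each tested gene in the 9 pathway lists and of the 9 genes described here (top line); red points passed higher, blue points passed lower and open points did not pass. Receptor desensitisation reaches from −7.69 (Grk3, 8 reads over the doxorubicin libraries) to 1.37, and no PKA substrate passed higher.

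In the cultures with histidine, listed genes were compared between both and histidine libraries. Arrb2 had 3.2 ± 0.29 CPM in both libraries, against 51 ± 2.61 CPM in histidine libraries, and Grk2 had 47.2 ± 2.85 CPM, against 85.3 ± 2.21 CPM. Maoa was at 272 ± 27.6 CPM in both libraries, against 164 ± 29.7 CPM in histidine libraries, and Pde7b at 7.27 ± 1.36 CPM, against 2.62 ± 0.526 CPM. Adora2a, an adenosine receptor coupled to the stimulatory G protein, fell to 1.81 ± 0.647 CPM, against 4.79 ± 2.29 CPM. Gnai1 passed with 19.8 ± 0.746 CPM in both libraries, against 13.9 ± 1.2 CPM in histidine libraries (edgeR adjusted p = 0.0368), a call that ended in 8 of the 10 fits without 1 library (all but those without histidine replicate 3 or 5), at adjusted p up to 0.0816.

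The spread between replicates differed widely among the genes. The coefficient of variation over 5 libraries was 2.31% for Pde3b in histidine libraries and 2.41% for Adcy5 in PBS libraries, against 68.6% for Adra1a in both libraries and 60.2% for Adrb1 in doxorubicin libraries. Adra1a had 1118 reads and Adrb1 1697 reads over all 20 libraries, while Adcy6 had 223473. The coefficient of variation of Adcy6 was 9.5% in both libraries, 16.1% with doxorubicin, 5.59% with histidine and 3.93% with PBS.

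The genes whose pattern over the 20 libraries lay nearest to each of the 9 were found by the root mean square (RMS) difference in centred log2 CPM over 9399 genes, as a description with no test. Nearest to Adrb1 were Mfap2, C3h11orf96 and Tnnc1, at 0.71 to 0.82 where the median gene was at 1.49. Abcb4, Rad54l and Psd4 were nearest to Adra1a (0.54 to 0.57), and Dok2, Acp3 and Fanca to Adora1 (0.35 to 0.36). Nearest to Adra1b were Pcdhb15, H2bu1 and Hace1 (0.30 to 0.31), and to Chrm2 were Ahi1, Ninl and Zmat3 (0.16 each). Among the enzymes, Cnbd2, Plcg1 and Aebp1 lay nearest to Adcy6 (0.07 to 0.08) and Pcsk7, Rassf8 and Glis2 to Adcy5 (0.11 each, where the median gene was at 0.32). For Pde3a these were Itpr1, Tenm3 and Pdgfrb (0.13 each), and for Pde3b Stom, Klhl5 and Actr3 (0.09 to 0.10). All these comparisons share the same 20 libraries and the split between those with and without doxorubicin.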

How the data were processed

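Poly(A) RNA for 20 libraries was selected with oligo(dT) beads and made into libraries by a protocol with no step that marks strand, per the labels' protocols. Per the submitters' processing notes, reads were trimmed by Trimmomatic, and the build is mRatBN7.2; the aligner, the counter and the annotation were not given in the sources used here. Raw counts of reads per gene, as whole numbers, are what the authors deposited, with no scaling, per the file headers. They also deposited FPKM, scaled by the authors to gene length and library reads, per the file headers. Each of the 40 within-group pairs of libraries had a chi-square of 34.9 to 648.7 times its degrees of freedom, and no pair was taken for a duplicate. Totals were 53246205 to 83624651 reads.

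Symbols came from RefSeq's GRCr8 gene table through protein accessions (7645 genes), KEGG names (2688) and protein names (26); 178 symbols that fell on more than 1 gene were left out. Gene coordinates are those of the table, and promoter windows were matched for 6 of the 9 genes. Counts were filtered with filterByExpr (15449 genes kept), scaled by TMM and tested with edgeR 4.0.16 in R 4.3.3 (quasi-likelihood F test, 1 fit over the 4 groups, Benjamini-Hochberg adjustment, threshold 0.05). The SE was taken as |log2 fold change| over the root of the F statistic. Levels in CPM use the TMM-scaled totals. Ratios of FPKM were tested by exact two-sided permutation with scipy. The fit was also run on simulated counts in which few genes changed. With 43.2% of genes called here for doxorubicin against PBS, that run does not test the scaling under so wide a change. Alternatives were RLE size factors, library totals, other filters, DESeq2 1.42.0, limma 3.58.1, fewer groups, a replicate block, each library left out, and for the ratios another pseudocount and counts in place of FPKM. Same-numbered libraries did not deviate together (2 of 30 correlations over 0.1, median 0.014), so the numbers were not treated as pairs.

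The 9 genes and the lists were chosen with earlier results of these data known. The text names all 9 genes, up to 4 genes of each list with the smallest adjusted p, and the 3 nearest genes of each by RMS difference. Gnas and Prkacb, Chrm3's read counts, Nr4a1, Akap5 and Pde5a were singled out after their values were seen. The floor of 3 reads covers counting error only, while standard errors include the spread between libraries. Some results, among them those of 1 ratio, are not reported here.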

Additional observations from a re-analysis of the deposited data

Results flagged for a closer look

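In 5 of 48 groups of 5 values (36 of the 9 genes and 12 of the ratios) 1 library lay far from the other 4. For independent, normally distributed values, chance alone gives about 1 in 20 groups, or 2.4. These groups share libraries and include genes with few reads, so 2.4 is only a rough guide. With histidine alone, Adra1b was at 3.35 CPM in replicate 1, against 1.91 to 2.13 CPM in the other 4 libraries. In the same group Chrm2 was at 4.79 CPM in replicate 3, against 3.15 to 3.45 CPM, and Adora1 at 5.28 CPM in replicate 3, against 1.68 to 2.21 CPM. With doxorubicin alone, Chrm2 was at 3.55 CPM in replicate 4, the library that stands apart in the second principal component, against 6.57 to 7.44 CPM. With both compounds, Adcy6 was at 172 CPM in replicate 2, against 214 to 220.1 CPM in the other 4 libraries.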

How the results depend on the processing

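No result that passed changed direction under the alternatives run. Of differences that did not pass, several changed sign, such as Adora1 with histidine against PBS (−0.23 to 0.32 without 1 library in turn), Adra1a with both against doxorubicin (−0.23 to 0.70) and the Adcy5 to Adcy6 ratio with histidine against PBS (−0.13 to 0.03). The count of the 9 genes that passed stayed within 7 to 9 for doxorubicin against PBS and 6 to 8 for both against histidine, and was 0 throughout for histidine against PBS, both against doxorubicin and the interaction; the lowest of these came from a fit of the compared groups alone (7) and from a filter of at least 1 CPM on average, which drops Adra1a (6). Of the values for single genes of the 9 under alternatives, 1133 kept their side of the threshold and 22 lost it, all for Adrb1, Adcy5 and Pde3a as given above. The log2(FPKM + pseudocount) scale understates the changes of low genes by construction. In limma on log2(FPKM + 1), doxorubicin against PBS gave −0.32 for Adrb1, −0.50 for Adra1a, −0.35 for Adora1, 0.48 for Adra1b and 0.31 for Chrm2. With 0.1 in place of 1 it gave −1.18, −1.78, −1.31, 0.82 and 0.63 for the same genes.

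With the replicate number as a block, edgeR passed 9 and 8 of the 9 genes in the comparisons with doxorubicin. For the ratios the paired sign-flip test of 5 pairs cannot go below p = 0.0625 (exact; adjusted p = 0.111), so none could pass. The differences were the same, −3.47, −0.73 and −2.74 for Adra1a to Adra1b (doxorubicin against PBS, histidine against PBS, both against histidine), −0.70 and −0.49 for Adcy5 to Adcy6, and −0.31 and 0.37 for Pde3a to Pde3b. Without 1 library in turn, the ratio differences that lost their call ranged from −0.89 to −0.61 (Adra1a to Adra1b, histidine against PBS) and from −0.37 to −0.20 (Pde3a to Pde3b, doxorubicin against PBS).

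Genes at an unadjusted p under 0.05 moved with the libraries used: 667 with the compared groups alone and 697 without doxorubicin replicates 3 and 4, against 312, for histidine against PBS; 767 and 787, against 1940, for both against doxorubicin. Without 1 library in turn the count for both against doxorubicin ran from 1127 (doxorubicin replicate 4) to 2807 (doxorubicin replicate 1), with 1243 without both replicate 2. The interaction had 1060 such genes, 1743 without doxorubicin replicate 1 and 740 without histidine replicate 4. The cause was not tested. Depth limits Adra1a, Adora1 and Adrb1, with 95, 201 and 223 reads over the 5 doxorubicin libraries.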

Other observations

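Gnas and Prkacb belong to a small set of genes whose libraries fall into separate ranges with libraries of every group in each. Of 13619 genes with a mean of at least 1 CPM, 26 (0.191%) had a gap of at least 2 on the log2 scale between neighbouring libraries with every group on both sides of it. Of the pathway genes 2 were among them, and of the 9 genes described here 0. By this rule a gene is not counted where libraries of only some groups fall low, such as Adrb1 with 0 reads in doxorubicin replicate 3. For Gnas the gap was 3.22 on the log2 scale, with 9 libraries below and 11 above, and for Prkacb 2.26, with 6 below and 14 above. For Gnas 2 both libraries and 1 doxorubicin library were below the gap, against 2 histidine libraries and 4 PBS libraries. The search was made after the values of these genes were seen, and neither the cause nor a relation to treatment was tested beyond the edgeR fits.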
